A study of Mus musculus with 6 samples.

Results

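Red blood cell transcripts were followed through RNA sequencing libraries of mouse granulosa cells, as a measure of the blood carried into each preparation. The genes were taken from a list of 7 symbols: the adult beta-globin genes Hbb-bs and Hbb-bt, the adult alpha-globin genes Hba-a1 and Hba-a2, Alas2, Slc4a1 and Ahsp. Of these, 6 were matched by symbol to the 49315 genes counted in each library, and Ahsp was not analysed here. The list was chosen with the levels in these same libraries known. The levels of its genes, and their differences between genotypes, are therefore a description without a test.

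Granulosa cells are the somatic cells that surround the oocyte in the ovarian follicle. They were freshly isolated from ovaries of C57BL/6J mice aged 8 to 9 weeks, either wild type (WT) or with a granulosa cell-specific knock out (KO) of Jmjd3, and each genotype is represented by 3 libraries. Jmjd3 (Kdm6b) encodes an enzyme that takes methyl groups off lysine 27 of histone H3, a mark of silent genes. The sources used here do not give the Cre driver, the deleted exons or the number of animals behind a library. The p-values below therefore set the difference between genotypes only against the spread among libraries of a genotype, and that spread may be technical.

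Mature red blood cells of mammals have no nucleus and make no new RNA, but the youngest of them in the circulation, the reticulocytes, still hold messenger RNA from their precursors. Most of that RNA encodes the alpha and beta chains of haemoglobin, which pair with each other and bind haem. ALAS2 is the erythroid enzyme that starts haem synthesis, SLC4A1 (band 3) is the anion exchanger of the red cell membrane, and AHSP is a chaperone that holds free alpha-globin.

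Gene counts summed to between 42379018 and 49901493 per library, with 26097 to 27057 genes detected in each. Levels are given as normalised read counts (CPM) after scaling of the library sizes, and 1 CPM corresponds to 42.5 to 51.4 counts. Over 18250 genes tested with edgeR's quasi-likelihood test, 40 were called at a Benjamini-Hochberg adjusted p under 0.05. KO replicate 3 stood apart from the other libraries, since 421 genes were called without it. Kdm6b RNA was 64.7, 68.6 and 112 CPM in the KO libraries, against 66.2 to 72.8 CPM in the WT libraries (log2 difference, KO minus WT, 0.26 ± 0.22 SE, edgeR adjusted p = 0.755). Counts over a whole gene can hold reads of exons that remain after a deletion, so this level cannot show the deletion, and each genotype is that of the label.

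The 4 globin genes lie in a pair of clusters, and the sequence in front of each gene is shown as background. A link between these sequences and the levels in the libraries was not tested. Hbb-bs and Hbb-bt lie on chromosome 7 (GRCm38, minus strand, 103826534 to 103828096 and 103812524 to 103813996). Hba-a1 and Hba-a2 lie on chromosome 11 (plus strand, 32283511 to 32284465 and 32296489 to 32297298). Alas2 lies on the X chromosome (plus strand, 150547375 to 150570638) and Slc4a1 on chromosome 11 (minus strand, 102348824 to 102366203). Promoter sequence from RefSeq (GRCm38.p6) was used for 5 of the genes, without Slc4a1 and Ahsp. The 110 bases before the RefSeq start are printed 5′ to 3′ on the strand of the gene, at chr7:103827929-103828038 for Hbb-bs, chr7:103813924-103814033 for Hbb-bt, chr11:32283562-32283671 for Hba-a1, chr11:32296382-32296491 for Hba-a2 and chrX:150547307-150547416 for Alas2. Capitals mark every match, on either strand, to 4 motifs that are textbook elements of globin and erythroid promoters. TATAA stands for the box at which transcription machinery assembles, and CCAAT for the box at which the factor NF-Y binds. The site of GATA factors was searched as AGATAA, with TGATAA as its other form. CCNCNCCC stands for the box bound by KLF1 and related factors.
Hbb-bs: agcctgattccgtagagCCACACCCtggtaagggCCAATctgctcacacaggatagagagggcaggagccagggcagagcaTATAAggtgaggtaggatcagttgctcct
Hbb-bt: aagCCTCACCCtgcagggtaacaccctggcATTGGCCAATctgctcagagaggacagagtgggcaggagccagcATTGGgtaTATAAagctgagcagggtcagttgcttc
Hba-a1: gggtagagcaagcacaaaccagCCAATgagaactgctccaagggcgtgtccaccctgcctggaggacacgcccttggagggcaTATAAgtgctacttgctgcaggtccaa
Hba-a2: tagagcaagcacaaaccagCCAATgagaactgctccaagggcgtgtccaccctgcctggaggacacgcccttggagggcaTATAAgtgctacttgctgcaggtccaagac
Alas2: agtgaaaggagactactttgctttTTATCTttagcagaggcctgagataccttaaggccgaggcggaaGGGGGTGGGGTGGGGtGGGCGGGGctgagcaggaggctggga
TATAA and CCAAT were both found in the 4 globin windows and not in that of Alas2. The first base of TATAA stood between 27 and 30 bases before the start, and the plus-strand CCAAT between 75 and 91 bases before it. Hbb-bt held 2 further CCAAT matches on the minus strand, one of them directly adjoining the plus-strand match. CCNCNCCC was found in Hbb-bs, Hbb-bt and Alas2, where 3 of its 4 minus-strand matches overlapped each other. The GATA motif was found in Alas2 alone, on the minus strand with its first base 86 bases before the start. Over all 32851 RefSeq promoter windows of the same length, 10.9% held TATAA, 20.2% CCAAT, 6.8% the GATA motif and 33.1% CCNCNCCC. The gene bounds in the count files begin upstream of the RefSeq start for all 5 genes, so the windows of Hbb-bs and Hba-a1 lie inside those bounds and the others overlap them.

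The alpha windows and the beta windows each come from near-identical gene copies, which also limits the counts of single globin genes. The coding sequences of Hbb-bs and Hbb-bt differed at 1 of 444 aligned bases, and those of Hba-a1 and Hba-a2 at 1 of 429. The 3′ untranslated regions differed at 33 of 124 aligned bases in the beta pair and at 0 of 74 in the alpha pair. Of the stretches of 150 bases (the read length) in the Hbb-bs transcript, 58.7% were also found in Hbb-bt, and 48.4% of those in Hba-a1 were found in Hba-a2. The sources used here do not say how reads that match several places were counted. The split within each pair is therefore uncertain, and sums over both members of a pair depend less on it.

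Hbb-bs was the most abundant of the red blood cell transcripts in every library. It stood at 229.6, 431 and 467 CPM (WT replicates 1 to 3) and 1325, 788 and 489.8 CPM (KO replicates 1 to 3). WT replicate 1 was the lowest and KO replicate 1 the highest, 5.77-fold apart, while KO replicate 3 was only 1.05 times WT replicate 3. The group means were 376 ± 128 (SD, n = 3) and 867 ± 423 CPM, a log2 difference of 1.21 ± 0.47 (SE). Ranked by CPM per kilobase among all genes, Hbb-bs held place 123, 59 and 48 in the WT libraries and place 13, 24 and 51 in the KO libraries.

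Hbb-bt, the second adult beta-globin gene, stood at 28.9, 52.7 and 63.6 CPM (WT replicates 1 to 3) and 178, 104 and 64.3 CPM (KO replicates 1 to 3). Its lowest and highest libraries were those of Hbb-bs, and KO replicate 3 was again close to WT replicate 3 (ratio 1.01). The means were 48.4 ± 17.7 and 115 ± 57.7 CPM, a log2 difference of 1.25 ± 0.51 (SE).

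Hba-a1, which encodes the alpha chain, stood at 84.1, 169.9 and 188 CPM (WT replicates 1 to 3) and 533, 313 and 194 CPM (KO replicates 1 to 3). Hba-a2, which encodes the alpha chain as well, stood at 25.5, 51.8 and 56.2 CPM (WT) and 164, 97.4 and 56.2 CPM (KO). In both genes WT replicate 1 was lowest, KO replicate 1 was highest, and the third libraries of the genotypes were alike (KO to WT ratios of 1.03 and 1.0). The log2 differences were 1.24 ± 0.52 (SE) for Hba-a1 and 1.25 ± 0.54 (SE) for Hba-a2.

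Alas2 was expressed at 14.6, 21.4 and 23.4 CPM (WT replicates 1 to 3) and 58.2, 35.7 and 24.4 CPM (KO replicates 1 to 3). Its libraries stood in the order of the globin genes but spanned less, 4.0-fold from lowest to highest. The means were 19.8 ± 4.64 and 39.4 ± 17.3 CPM, a log2 difference of 0.99 ± 0.38 (SE).

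Slc4a1 was the rarest of the 6, with 8, 9 and 17 counts in WT replicates 1 to 3 and 52, 46 and 40 counts in KO replicates 1 to 3. These correspond to 0.156, 0.189 and 0.337 CPM in WT and to 1.11, 1.08 and 0.831 CPM in KO. The KO libraries were alike, with a coefficient of variation of 15.3%, against 43.8 to 51.3% for the other 5 genes. Among the WT libraries Slc4a1 varied most, at 42.5% against 23.4 to 37.6%. KO replicate 3 was 2.46 times WT replicate 3, so the closeness of these libraries in the globin genes and Alas2 was not seen here. The means were 0.227 ± 0.0966 and 1.01 ± 0.154 CPM, a log2 difference of 2.13 ± 0.32 (SE). All 6 genes passed the filter on low counts, Slc4a1 mainly through its KO libraries.

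**Figure D1:**
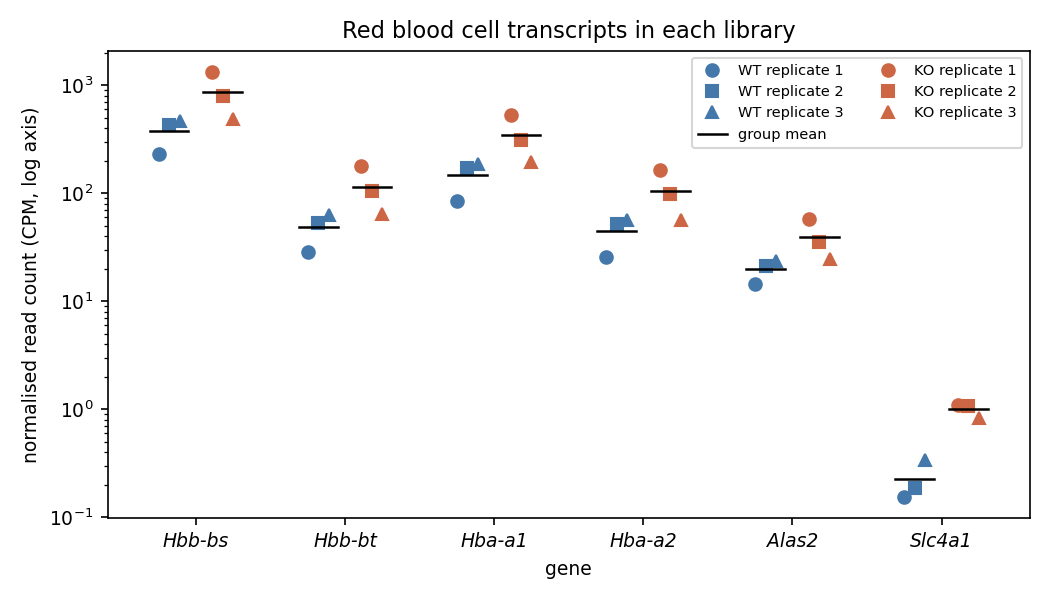
Normalised read counts (CPM, log axis) of the 6 red blood cell transcripts in each library, with WT in blue and KO in orange. Points are libraries and black lines are group means of n = 3. The triangles (replicate 3) of WT and KO lie side by side in all genes but Slc4a1.

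Scaled for length, the levels formed 5 steps. Over all 6 libraries the mean was 809 CPM per kilobase for Hbb-bs and 304 for Hba-a1, with Hbb-bs above Hba-a1 in each library, followed by Hbb-bt (116) and Hba-a2 (113), which did not differ beyond their spread. Alas2 stood at 12.3 and Slc4a1 at 0.126 CPM per kilobase. The same order of genes was found in WT replicate 1, where Hbb-bs had 299 and Slc4a1 had 0.0318 CPM per kilobase, and in KO replicate 1, where they had 1725 and 0.227 CPM per kilobase.

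All 6 genes put the libraries in a single order. WT replicate 1 was lowest, followed by WT replicate 2, WT replicate 3, KO replicate 3, KO replicate 2 and KO replicate 1. The groups were therefore apart in 6 of 6 genes, where every KO library lay above every WT library in 7.68% of all genes tested. This count used the contrast by which the genes were chosen and rests on the small gap between the third libraries. With other scalings of the library sizes, it was 5 of 6 (RLE), 4 of 6 (upper quartile) and 1 of 6 (library totals without scaling), and Slc4a1 was the gene that stayed apart in all of them. Unscaled, Hbb-bs stood at 479.6 CPM in WT replicate 3 and at 477 CPM in KO replicate 3.

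On the log2 scale, each gene was set against its own mean over the WT libraries. In KO replicate 1 the 4 globin genes stood between 1.88 and 1.96 above that mean, Alas2 1.58 above it and Slc4a1 2.15 above it. In KO replicate 2 the globin genes stood 1.13 to 1.21 above it, Alas2 0.88 and Slc4a1 2.12. In KO replicate 3 they stood 0.42 to 0.49 above it, Alas2 0.33 and Slc4a1 1.76. WT replicate 1 lay 0.64 to 0.72 below it in the globin genes, 0.41 in Alas2 and 0.39 in Slc4a1. The 4 globin genes thus lay close together within each library, with Alas2 nearer to 0 and Slc4a1 above them in every KO library.

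**Figure D2:**
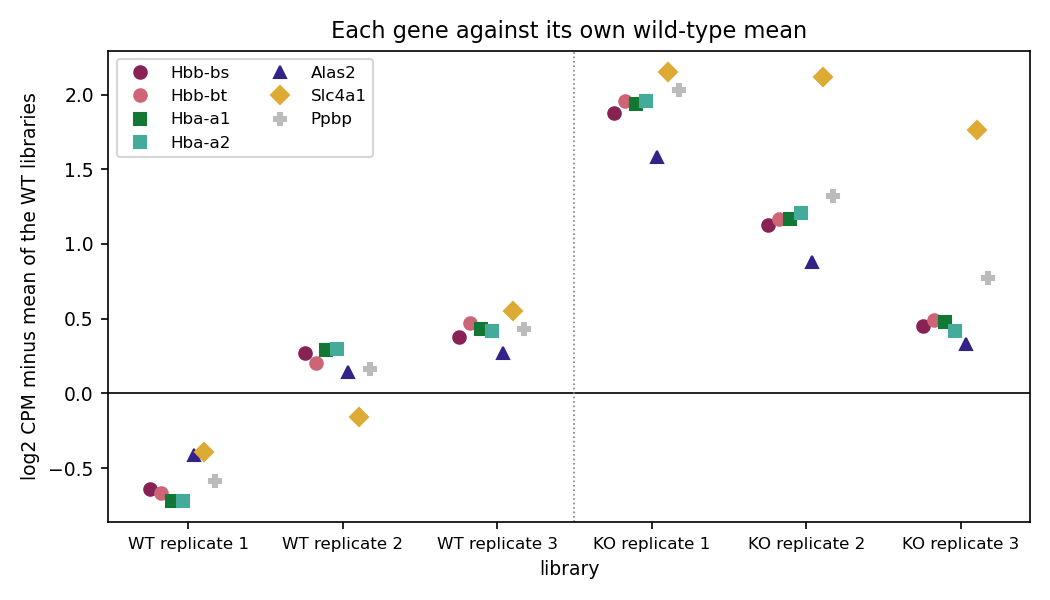
Log2 CPM of each gene minus its own mean over the 3 WT libraries, by library. Coloured points are the 6 red blood cell transcripts, and grey points are Ppbp. The globin genes lie close together in every library, Alas2 follows with a smaller span, and Slc4a1 is near 2 in all KO libraries.

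Pairwise likeness was measured by Pearson's r of log2 CPM over the 6 libraries, which fall into 2 genotypes of 3, too few for a value within each. The 4 globin genes correlated with each other at r = 1.0 and with Alas2 at r = 0.99. Slc4a1 correlated with the other 5 genes at r = 0.84 to 0.86. Spearman's rho was 1.0 in all 15 pairs, since the order was shared. Without WT replicate 1 and KO replicate 1, the libraries farthest from the median of the 6 genes, r was 0.98 to 1.0 among the globin genes and Alas2 and 0.74 to 0.82 with Slc4a1. The copies within each globin pair share sequence, r was as high between the pairs as within them, and these correlations are a description.

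Summed over the 4 genes, globin counts were a small share of every library. The share was 0.0379% in WT replicate 1 (95% Wilson interval 0.0374 to 0.0385%), 0.0707% in WT replicate 2 and 0.0795% in WT replicate 3 (0.0788 to 0.0803%). It was 0.212% in KO replicate 1 (0.2108 to 0.2134%), 0.130% in KO replicate 2 and 0.0783% in KO replicate 3 (0.0775 to 0.0791%). Without scaling, KO replicate 3 thus lay between WT replicates 2 and 3, and its interval overlapped that of WT replicate 3. These intervals cover counting error only. After scaling, the sum was 368, 706 and 774 CPM in WT replicates 1 to 3 and 2200, 1302 and 805 CPM in KO replicates 1 to 3. The means were 616 ± 217 and 1435 ± 707 CPM (SD, n = 3 each), a 2.33-fold ratio, while the highest and lowest of the 6 libraries were 5.98-fold apart. In a bulk library, fewer red cells and less RNA per red cell cannot be told apart.

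The proportions among the globin genes varied far less than their levels, while that of Slc4a1 to globin ranged 3.86-fold. Counts of alpha-globin were 42.4, 45.8 and 46.0% of those of beta-globin in WT replicates 1 to 3, and 46.4, 46.0 and 45.2% in KO replicates 1 to 3. WT replicate 1 was the low value and the groups overlapped. The means were 44.7 ± 2.01% and 45.9 ± 0.604% (SD, n = 3 each), with p = 0.6 by a two-sided exact permutation test of log2 ratios, whose smallest possible p with 3 against 3 is 0.1. Without WT replicate 1 the log2 difference moved from 0.04 to -0.001. The proportion ranged 1.09-fold over libraries whose globin sums ranged 5.98-fold.

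Hbb-bs counts were 7.96, 8.19 and 7.35 times those of Hbb-bt in WT replicates 1 to 3, and 7.44, 7.60 and 7.61 times in KO replicates 1 to 3. The groups overlapped (7.83 ± 0.436 against 7.55 ± 0.0973, SD, n = 3 each, exact permutation p = 0.4). Hba-a1 to Hba-a2 ratios ran from 3.21 to 3.45 over the 6 libraries. The part of reads shared between the near-identical copies in both ratios was not tested.

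Alas2 and Slc4a1 together had 4.0, 3.07 and 3.07% of the globin counts in WT replicates 1 to 3 and 2.70, 2.82 and 3.13% in KO replicates 1 to 3. The groups overlapped at KO replicate 3 (3.38 ± 0.539% against 2.88 ± 0.223%, SD, n = 3 each, exact permutation p = 0.3). With Benjamini-Hochberg adjustment over the 3 ratios tested, all exact permutation p-values were 0.6. None of these tests could give a p under 0.1. The ratios are also built from levels known when the list was chosen, so no conclusion is drawn from these p-values. Nearly all of this sum was Alas2, which alone had 3.96% of the globin counts in WT replicate 1 and 2.65% in KO replicate 1, the libraries with the fewest and the most globin counts. Slc4a1 counts varied more against globin, at 0.0423, 0.0268 and 0.0435% in the WT libraries and 0.0504, 0.0832 and 0.103% in the KO libraries. KO replicate 3, with the lowest globin sum of the KO libraries, thus had the highest proportion of Slc4a1, which rests on 40 counts.

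**Figure D3:**
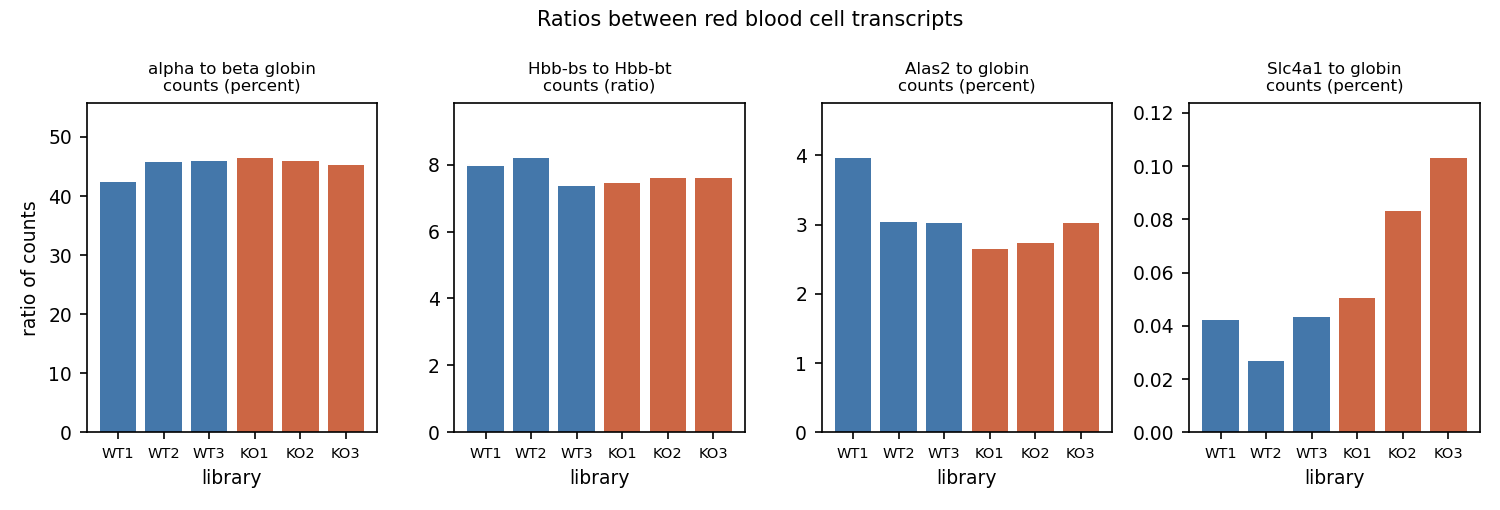
Ratios of counts among red blood cell transcripts in each library, with WT in blue, KO in orange and all axes starting at 0. The alpha to beta and Hbb-bs to Hbb-bt ratios are nearly level across libraries, Alas2 to globin is highest in WT1, and Slc4a1 to globin ranges 3.86-fold.

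The other globin genes of both clusters were at or near 0. Hbb-bh1 and Hba-x, which are expressed in the embryo, had no count in any library, and neither had Hbb-bh2. The embryonic gene Hbb-y had 1 count in WT replicate 2 and 1 in KO replicate 2. A count of 0 allows up to 3 counts in a library. Hbq1a and Hbq1b, theta-globin genes of the alpha cluster, reached at most 0.188 and 0.0640 CPM. Nearly all globin counts of these libraries were thus those of the 4 adult genes.

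The differences of genes near the alpha cluster were smaller than those of the globin genes. Within 100 kb of the alpha-globin genes, 6 of 9 protein-coding neighbours were tested, and their log2 differences ran from -0.13 to 0.37. The smallest edgeR adjusted p among them was 0.672, for Nprl3, whose introns hold the distal enhancers of the alpha-globin genes. Nprl3 was level over the libraries, at 25.1, 23.0 and 25.4 CPM in WT and 25.4, 27.2 and 27.0 CPM in KO. All 13 neighbours of the beta-globin genes, most of them olfactory receptor genes, were too low to test.

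The rest of the red cell programme was read from 5 lists that leave out the 6 genes. They hold the other globins, the haem synthesis pathway, the red cell membrane and its skeleton, erythroid transcription factors and receptors, and genes of late erythroblasts and reticulocytes. Of their 65 genes 51 could be tested, and 0 were called by edgeR, where 0.219% of all genes tested were called. At an unadjusted p under 0.05, 7 of the 51 were found, 5 of them higher in KO, where this share was 9.16% over all genes. DESeq2 and limma-voom called 0 of them as well, with 6 and 7 at an unadjusted p under 0.05. The median log2 difference was 0.02 over the 51 genes and 0.004 over all genes tested, and every KO library lay above every WT library in 6 of the 51 and below every WT library in 3, where these shares were 7.68% and 7.89% over all genes tested. Many of these genes are active in cells of all kinds, so their level in granulosa cells is part of each value.

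Haem synthesis genes outside Alas2 had a median log2 difference of 0.06 over 13 tested, with 2 at an unadjusted p under 0.05, against 0.99 for Alas2. Alas1, the enzyme that starts haem synthesis in cells outside the erythroid line, stood at 90.5, 89.1 and 79.2 CPM (WT) and 108, 92.3 and 231 CPM (KO). It was thus highest in KO replicate 3, the KO library in which Alas2 was lowest, with a log2 difference of 0.74 ± 0.39 SE (edgeR adjusted p = 0.639). Slc25a39, a mitochondrial carrier, and Tmem14c, which moves haem precursors in mitochondria, had group means of 163 and 180.1 CPM and of 137 and 145 CPM, within the range of their spread.

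Among 16 tested genes of the red cell membrane (median 0.02, 2 at an unadjusted p under 0.05), the most abundant were Epb41 (67.0 and 70.0 CPM in WT and KO), Aqp1 (46.5 and 49.0) and Stom (42.3 and 41.7), all with groups that overlapped. Cldn13 and Icam4, 2 further genes of this list, had no count in any library.

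None of the 10 tested erythroid regulators was called by edgeR, and 0 reached an unadjusted p under 0.05 (median log2 difference 0.09). Gata1, the master factor of the erythroid and megakaryocyte lines, stood at 3.46, 4.49 and 4.10 CPM (WT) and 3.73, 2.90 and 3.05 CPM (KO), with r = -0.24 to the mean of the red blood cell transcripts. Klf1, which activates adult beta-globin, was low, with means of 0.504 ± 0.0741 and 0.425 ± 0.0708 CPM. The most abundant genes of the list were Ldb1, with means of 97.9 and 107 CPM, Tfrc, the transferrin receptor, with 79.9 and 87.6 CPM, and Bcl11a, with 38.6 and 37.3 CPM. The groups overlapped in all 5 of these genes.

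Of 12 tested genes of late erythroblasts and reticulocytes, 3 had an unadjusted p under 0.05, all higher in KO, and 0 were called by edgeR (median log2 difference -0.00). Prdx2 (means 511 and 517 CPM), Bnip3l (175 and 165 CPM) and Xpo7 (106 and 107 CPM), which red cell precursors and other cells express, were level. Genes for the uptake, breakdown and storage of haem and iron had a median of 0.10 over 11 tested, and the ferritin genes Fth1 (869 and 915 CPM) and Ftl1 (773 and 831 CPM) overlapped between groups, as did the iron exporter gene Slc40a1 (102 and 83.1 CPM).

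Markers of other cells carried by blood, and of vessels, were set beside the red blood cell transcripts by library. Among the red blood cell transcripts, the median of log2 CPM minus the mean of the WT libraries was -0.66, 0.23 and 0.43 in WT replicates 1 to 3 and 1.95, 1.17 and 0.47 in KO replicates 1 to 3. For platelet markers it was -0.08, 0.11 and -0.03 in WT and 0.77, 0.50 and 0.25 in KO, which gives the KO libraries in the same order. Endothelial markers stood at 0.08, -0.17 and 0.09 in WT and at 0.75, 0.26 and -0.26 in KO, and macrophage markers at -0.17, 0.01 and 0.16 in WT and at 0.44, 0.10 and -0.36 in KO. All 3 lists were highest in KO replicate 1, as were most other lists, though not the granulosa cell markers (0.08 there and 0.46 in KO replicate 3). KO replicate 3 was the lowest library for endothelium and macrophages, whereas the red blood cell transcripts there were at the level of WT replicate 3.

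Platelet markers were low, with a sum over 12 genes of 6.67, 7.74 and 7.89 CPM in WT and 13.8, 11.3 and 8.87 CPM in KO. Of 7 tested, 0 were called by edgeR and 3 had an unadjusted p under 0.05, with a median log2 difference of 0.55, where 0.219% of all genes tested were called and 9.16% had an unadjusted p under 0.05. Ppbp, a platelet chemokine gene, had r = 1.0 with the mean of the red blood cell transcripts. It stood at 0.233, 0.420 and 0.516 CPM (WT) and 1.64, 0.989 and 0.665 CPM (KO), in the order of the globin genes (log2 difference 1.49 ± 0.40 SE, edgeR adjusted p = 0.300). Pf4 (means 2.64 and 3.61 CPM) and Clec1b (0.770 and 1.02 CPM) overlapped between groups, and Itga2b (1.77 and 2.60 CPM, edgeR adjusted p = 0.362) did not overlap. Of the 7 tested, 6 had a positive log2 difference, where 50.9% of all genes tested did. Gp1ba went the other way, at 0.681, 0.818 and 0.674 CPM (WT) and 0.469, 0.518 and 0.644 CPM (KO), with a log2 difference of -0.41 ± 0.25 SE (edgeR adjusted p = 0.644).

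Neutrophil markers stood at medians of -0.52, 0.08 and 0.43 in WT and 0.62, 0.37 and -0.11 in KO over 5 tested genes. S100a9 followed the red blood cell transcripts at a low level (0.253, 0.420 and 0.575 CPM in WT and 1.11, 0.824 and 0.685 CPM in KO), whereas Ltf was highest in WT replicate 1, at 22.2 CPM, the library with the least globin. Elane, a defining gene of neutrophil precursors, had no count in any library, and Csf3r stood at 0.937 and 1.14 CPM. Lymphocyte markers had a median log2 difference of 0.30 over 16 tested. By library their medians were -0.09, -0.06 and 0.11 in WT and 0.54, 0.31 and -0.14 in KO, so KO replicate 3 was the lowest library. Ighm stood at 6.60 and 7.55 CPM, Igkc at 5.16 and 6.88 CPM and Lck at 3.98 and 4.07 CPM, and all 3 overlapped between groups. Of the 16, 15 had a positive log2 difference, where 50.9% of all genes tested did. Ms4a1 went the other way, at 3.77, 3.84 and 4.54 CPM (WT) and 2.90, 2.73 and 2.68 CPM (KO), with a log2 difference of -0.55 ± 0.15 SE (edgeR adjusted p = 0.304).

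Macrophage markers summed to 223, 253 and 283 CPM in WT and 341, 262 and 186 CPM in KO, led by Lyz2 (means 98.6 and 93.5 CPM), C1qa (31.0 and 35.3 CPM) and C1qb (29.8 and 32.8 CPM). Endothelial markers summed to 272, 231 and 273 CPM in WT and 415, 295 and 201 CPM in KO, led by Cdh5 (37.3 and 44.6 CPM), Kdr (35.2 and 36.0 CPM) and Eng (31.6 and 39.2 CPM). The groups overlapped in all 6 genes. Granulosa cell markers were far above any of these, at 14228 to 22588 CPM in sum, with Inha, Gja1 and Inhba most abundant and the highest sum in KO replicate 3. Over the 12 lists outside the red blood cell transcripts, 123 of 149 genes were tested and 0 were called by edgeR, with 15 at an unadjusted p under 0.05, 11 of these higher in KO. Over all genes tested, 9.16% had an unadjusted p under 0.05, and 848 of these 1671 genes were higher in KO. DESeq2 and limma-voom called 0 as well, with 16 and 14 at an unadjusted p under 0.05. Without KO replicate 3, edgeR called 9 of 125, all higher in KO, among them Cldn5, Csf1r, Gp9, Igkc, Plvap, Ppbp, Slc48a1 and Tubb1. In that same fit 421 of all 18622 genes tested were called, 324 of them higher in KO. Gp9 (3, 3 and 3 counts in WT replicates 1 to 3) and Tubb1 (2, 7 and 8 counts) were not tested with all 6 libraries. Without KO replicate 3 they passed the filter on low counts only through KO replicates 1 and 2 (16 and 16 counts, and 24 and 21 counts). Their direction was thus largely set by the filter, and no conclusion is drawn from these calls. The part of blood, vessels and KO replicate 3 in the differences of the red blood cell transcripts was not tested.

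**Figure D4:**
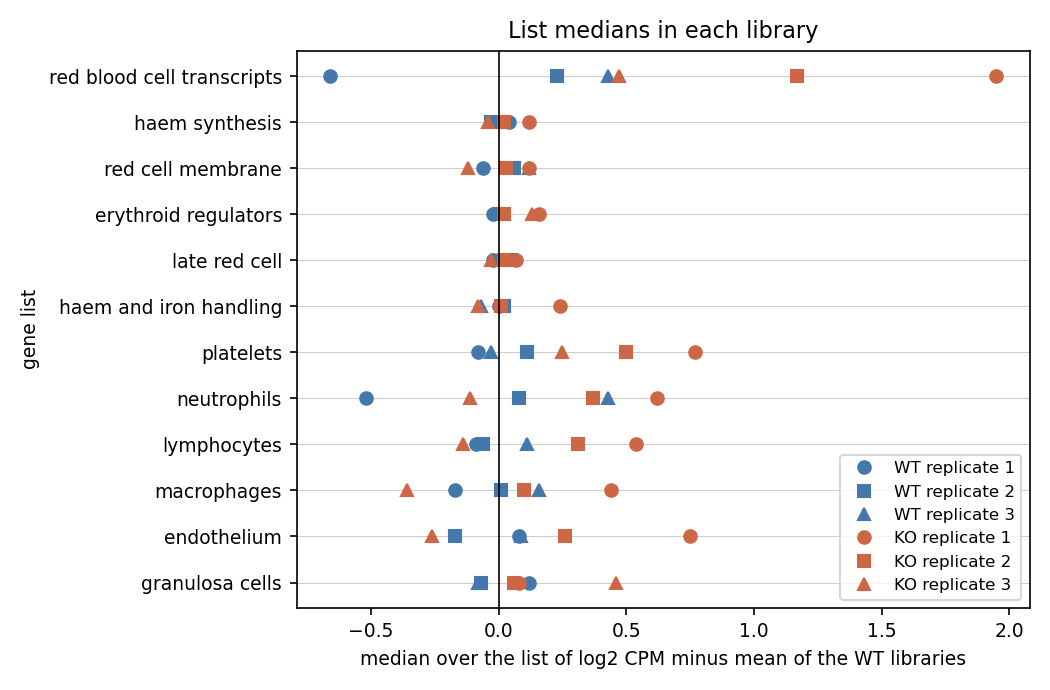
Median over each list of log2 CPM minus the mean of the WT libraries, by library (WT in blue, KO in orange). The red blood cell transcripts span -0.66 to 1.95, and the other red cell lists stay near 0. All lists but granulosa cells are highest in KO replicate 1, where red cell membrane is level with WT replicate 3.

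Genes whose profile was most like that of the red blood cell transcripts were sought among 13312 named genes whose mean was 1 CPM or more, by Pearson's r of log2 CPM with the mean of the 6 genes over the 6 libraries. The 10 closest were Tpp1, Pmp22, Clptm1l, Gpr107, Slc30a2, Csf1, C1qtnf6, Lemd2, Tspan9 and Tmem176a, with r from 0.997 to 0.989. Their profiles were flatter. Tpp1, which encodes a lysosomal peptidase, ran from 163 CPM in WT replicate 1 to 220.3 CPM in KO replicate 1, a 1.35-fold span, and Tspan9 spanned 1.15-fold. Slc30a2, a zinc transporter gene, had the widest span of the 10, at 3.10-fold (10.6, 14.5 and 16.8 CPM in WT and 32.9, 24.7 and 16.5 CPM in KO). Their edgeR adjusted p ran from 0.326 to 0.687. These genes were ranked on the pattern itself, over 6 libraries, so their likeness is a description.

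With the limit on abundance lifted, after the values had been seen, 138 of 15253 named genes tested (0.905%) had r of at least 0.95. Of these, 10 also spanned at least 3-fold from the lowest to the highest library, as the red blood cell transcripts did. Ppbp spanned 7.03-fold and S100a9 4.38-fold. Slc30a2 is described above. Jchain, the joining chain of immunoglobulins, spanned 3.82-fold, and Spib, a transcription factor gene of B cells, spanned 3.29-fold. Cyp4f18 spanned 4.32-fold, Cd226 3.78-fold, AU021092 3.35-fold and Stc1 3.09-fold. Apart from AU021092, Stc1 and Slc30a2, the genes named had means under 5 CPM, against 622 CPM for Hbb-bs.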

How the data were processed

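RNA of granulosa cells from WT and KO ovaries (3 libraries each, groups and replicate numbers from the labels) was sequenced in read pairs, per the labels' protocols. The tools named per the submitters' processing notes are Trimmomatic 0.36, STAR 2.5.2b, Subread 1.5.2 and its featureCounts, and the build is GRCm38. The values the authors deposited are raw counts per gene. The sources used here do not give the annotation release, the strand setting or the treatment of reads with several matches.

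Gene identifiers were named by GENCODE M21: 48970 of 49315 had a symbol, and 91.4% of those had the same start and end. KO was compared with WT in edgeR 4.0.16 under R 4.3.3 (filterByExpr, TMM scaling, the robust quasi-likelihood test on genotype alone, Benjamini-Hochberg adjustment over 18250 genes). Another 17050 genes had no count. A prior count of 2 was added for log2 CPM. Only the edgeR comparison was tested on simulated counts. Ratios were compared by exact permutation tests, two-sided, and the ratio planned with Ahsp was computed from Alas2 and Slc4a1. Promoters were read from RefSeq. Alternatives were DESeq2 1.42.0, limma-voom (limma 3.58.1), other scalings and filters, the replicate number as a block, and leaving out each library. No 2 libraries held identical values.

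The genes and lists were chosen with earlier results of these data known. Named were the listed red blood cell transcripts, the 3 genes of each other list with the highest mean CPM, any called, and the 10 genes most like the red blood cell transcripts. Gata1, Klf1, Ppbp, Gp1ba, Ms4a1, Nprl3, genes at 0 and genes named for a span of at least 3-fold were chosen after their values were seen. A few genes are not reported here.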

Additional observations from a re-analysis of the deposited data

How the results depend on the processing

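The log2 differences of Hbb-bs, Hbb-bt, Hba-a1, Hba-a2 and Alas2 stayed positive under every setting run. Leaving out 1 library at a time moved them over 0.76 to 1.49, 0.79 to 1.54, 0.77 to 1.52, 0.78 to 1.55 and 0.59 to 1.25, with the lowest value without KO replicate 1 and the highest without KO replicate 3. Slc4a1 ranged from 1.92 to 2.53, was highest without WT replicate 3, and gave no value with a filter at a mean of 1 CPM. The number of red blood cell transcripts with groups apart was 6 of 6, but 5 with RLE, 4 with upper quartile and 1 with unscaled totals, scalings chosen after seeing the data. The alpha-to-beta globin difference of 0.037 (log2) ranged from -0.001 to 0.057 when 1 library was left out, and was -0.001 without WT replicate 1. The other ratios kept their direction.

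Over all genes, the 40 calls became 221 with DESeq2, 26 with limma-voom, 199 with no filter, 21 at a mean of at least 1 CPM, and between 8 and 421 when 1 library was left out (17, 8 and 9 without WT replicates 1, 2 and 3, 26 without KO replicate 1, 421 without KO replicate 3). The causes were not tested. Among listed genes outside the red blood cell transcripts, 0 calls became 1 (Ppbp) with no filter and between 0 and 9 when 1 library was left out. The 9 calls, without KO replicate 3, include Gp9 and Tubb1, which passed the filter only through their KO libraries. Libraries with the same replicate number did not deviate together (r = -0.02, 0.07 and -0.03), so no pairing by number was seen. A weak pairing would not show in this measure. With the replicate number as a block, 15 genes were called, 14 of them among the 40, and the ratio differences were 0.037, -0.051 and -0.220. Counts of 8 to 17 in WT limit the precision of Slc4a1.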
